A study of Homo sapiens with 12 samples.

Results

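The 10 genes described here belong to the ATF4 pathway and to the supply of amino acids it controls: ATF4, DDIT3, DDIT4, TRIB3, SESN2, ASNS, PSAT1, PHGDH, SLC7A11 and SLC7A5. They were chosen by symbol, and each was found once among the 60612 named rows of a table of 3′ RNA-seq counts. The cells were CAMA-1, an established human breast cancer line that expresses the oestrogen receptor (ER), labelled Wild-type in every group. They received the DMSO vehicle, abemaciclib at 100 nM (an inhibitor of the cell cycle kinases CDK4 and CDK6), fulvestrant at 5 nM (which binds ER and causes its degradation), or the combination of both drugs, whose doses the labels do not restate. Each of the 4 groups held 3 libraries, and the values come from 1 line in culture medium with serum and a glutamine supplement.

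ATF4 is a transcription factor made when cells are short of amino acids or hold unfolded protein. Stress kinases phosphorylate the translation factor eIF2, which slows protein synthesis in general but allows the ATF4 mRNA to be translated, so the level of ATF4 mRNA is not a measure of ATF4 protein. The factor then switches on genes for making and importing amino acids, genes that hold back the growth kinase mTORC1, and genes such as DDIT3 and TRIB3 that modify its own output. Several of these genes also answer to other regulators, including oestrogen receptor, p53, glucocorticoids and MYC.

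Library totals ranged from 3299119 to 5164667 counts, and all 12 libraries correlated best with a library of their own group. Fulvestrant was the loosest group, with a correlation of 0.970 between replicates 2 and 3. Luminal markers were present in every library (ESR1 76.3 to 107 CPM, GATA3 2471 to 4317 CPM), the leukocyte and basal markers PTPRC, KRT5 and KRT14 had at most 4 counts, and PECAM1 and COL1A2 had 0, while the collagen gene COL1A1 lay at 14.2 to 25.9 CPM. Mitochondrial transcripts took 12.0% to 12.5% of counts under DMSO and 15.6% to 20.6% under the drugs, and with these transcripts left out the numbers of members called in each comparison did not change. Levels are given as CPM (counts scaled to a common library size), which is a share of the RNA sequenced. A change in cell number or in total RNA per cell therefore cannot be seen, and a share also depends on the other transcripts.

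The DNA element through which ATF4 acts, the C/EBP-ATF response element, has the core TGATGNAA. This core was searched on both strands in RefSeq promoter windows of 300 bases (GRCh38.p14), running from 250 bases before to 50 after each annotated start. Of the 9 members with an entry, 1 held it, ASNS, and SLC7A11 had no entry. The core was in 215 of 8988 tested genes with a window (2.39%), in 1217 of 27305 symbols in the whole table (4.46%), and in 16 of 67 genes (23.9%) of a longer list of 84 genes of the same pathway, described below. The stretches below show the element in ASNS and in 6 genes of that longer list whose changes are described later; capitals mark the match, which reads as TGATGNAA or as its reverse complement, and every stretch runs 5′ to 3′ along the strand of its gene. In ASNS the match began 68 bases before the start.
ASNS, chr7:97872443-97872502, minus strand: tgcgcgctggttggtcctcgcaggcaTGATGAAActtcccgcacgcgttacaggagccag
SLC1A5, chr19:46784878-46784937, minus strand: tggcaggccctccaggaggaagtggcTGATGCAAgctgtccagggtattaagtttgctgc
MTHFD1L, chr6:150866331-150866390, plus strand: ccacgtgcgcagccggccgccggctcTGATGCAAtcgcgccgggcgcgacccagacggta
HERPUD1, chr16:56931940-56931999, plus strand: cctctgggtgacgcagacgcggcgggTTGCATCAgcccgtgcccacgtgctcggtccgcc
CHAC1, chr15:40953236-40953295, plus strand: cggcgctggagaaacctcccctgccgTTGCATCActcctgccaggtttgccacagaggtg
ATF3, chr1:212565190-212565249, plus strand: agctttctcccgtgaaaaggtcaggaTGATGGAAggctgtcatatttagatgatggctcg
SLC3A2, chr11:62881725-62881748, plus strand: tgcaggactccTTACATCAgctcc
A match shows that these letters are present, not that ATF4 binds there, and the genes that carry it did not share 1 direction under the drugs, as the values below show.

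Across the members, both drugs lowered PHGDH, ATF4 and TRIB3 and raised DDIT4 and SESN2, whereas SLC7A5 and SLC7A11 passed the test, both lower, in the groups that received fulvestrant. Against DMSO, abemaciclib raised 2 and lowered 3 of the 8 members that passed the filter on low counts (quasi-likelihood test of edgeR, p adjusted over 11803 genes by Benjamini-Hochberg and under 0.05), where 20.5% of all genes tested rose and 20.7% fell. Fulvestrant raised 2 and lowered 5, against 25.3% and 25.7% of all genes. The combination raised 2 and lowered 5, against 27.7% and 27.5% of all genes. The median log2 fold change of the 8 members was -0.37 under abemaciclib, -0.43 under fulvestrant and -0.54 under the combination, with medians over all tested genes of 4.62e-04, 0.0075 and 0.010. These 3 comparisons share the DMSO libraries.

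**Figure D1:**
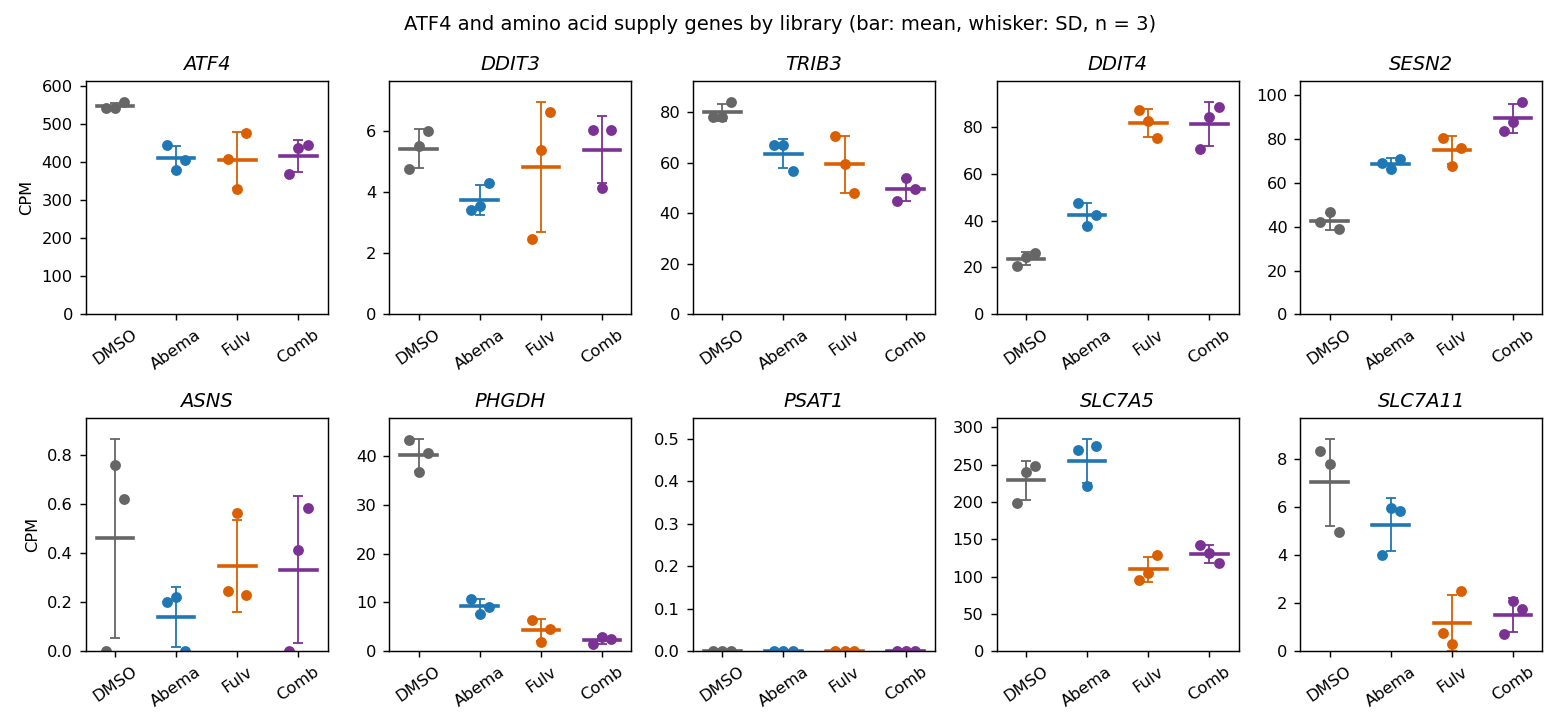
Level of each of the 10 genes in CPM in the 12 libraries, by group (Abema, abemaciclib; Fulv, fulvestrant; Comb, combination); points are libraries, bars are means and whiskers SD (n = 3), each panel with its own axis from 0. PHGDH stands at 36.9 to 43.3 CPM under DMSO and at 10.8 CPM or less in every drug library, DDIT4 and SESN2 lie higher in every drug library than in any DMSO library, and PSAT1 is at 0 throughout.

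ATF4 itself lies at chr22:39519695-39522683 (plus strand; GENCODE v44, GRCh38). Its transcript had 543, 543 and 557 CPM in the DMSO libraries, a level above 98.2% of tested genes in that group. It measured 444, 381 and 406 CPM under abemaciclib. It measured 409, 330 and 477 CPM under fulvestrant, and 369, 436 and 445 CPM under the combination. Each of the 9 drug libraries was below each DMSO library, and the drug groups overlapped one another. The log2 fold change was -0.42 ± 0.10 (SE) under abemaciclib (adjusted p = 0.00287), -0.43 ± 0.10 under fulvestrant (adjusted p = 0.00147) and -0.39 ± 0.10 under the combination (adjusted p = 0.00288). ATF4 did not differ detectably between the combination and abemaciclib (0.02, 95% interval -0.19 to 0.24) or fulvestrant (0.04, -0.18 to 0.26).

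TRIB3 (chr20:362835-397559, plus strand) encodes a pseudokinase that binds ATF4 and holds back its activity, and is itself an ATF4 target. Its CPM values were 78.1, 77.9 and 83.9 under DMSO, and 66.8, 67.1 and 56.9 under abemaciclib. They were 70.7, 59.5 and 48.1 under fulvestrant and 44.8, 54.0 and 49.7 under the combination. All drug libraries lay below all DMSO libraries, and the combination lay below abemaciclib without overlap. TRIB3 fell by 0.43 ± 0.12 on the log2 scale under fulvestrant (adjusted p = 0.00306) and by 0.69 ± 0.12 under the combination (adjusted p = 1.48e-05). The smaller fall under abemaciclib, -0.33 ± 0.12 (adjusted p = 0.0238), did not pass without DMSO replicate 3 (adjusted p = 0.0933) or without abemaciclib replicate 3 (adjusted p = 0.129).

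DDIT3 (chr12:57516588-57521737, minus strand) encodes CHOP, the factor that takes stressed cells towards death. It was scarce, with 4.75, 5.51 and 5.99 CPM under DMSO and 3.40, 3.53 and 4.30 CPM under abemaciclib, and 10 to 31 counts in any library. Fulvestrant libraries had 2.47, 5.36 and 6.61 CPM, and combination libraries 6.01, 4.14 and 6.02 CPM. The abemaciclib libraries were all below the DMSO libraries, but the log2 difference of -0.55 (95% interval -1.21 to 0.11) did not pass the test (adjusted p = 0.173), nor did those under fulvestrant (-0.18, adjusted p = 0.662) and the combination (-0.02, adjusted p = 0.953). DDIT3 overlaps MARS1 and MBD6 on the opposite strand, both counted here with up to 839 and 229 reads in a library, and whether counting used the strand was not stated, so its values are uncertain.

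DDIT4 and SESN2 encode brakes on mTORC1, the kinase complex that couples amino acid supply to growth: DDIT4 (REDD1) acts through the TSC complex, and SESN2 is a leucine sensor that acts through GATOR2. Both rose in each drug group. DDIT4 (chr10:72273919-72276036, plus strand) had 20.8, 24.3 and 26.3 CPM under DMSO and 47.6, 37.7 and 42.2 CPM under abemaciclib. It had 87.2, 82.4 and 75.2 CPM under fulvestrant and 70.5, 84.0 and 88.5 CPM under the combination. The DMSO, abemaciclib and fulvestrant libraries formed 3 steps without overlap, and the combination covered the fulvestrant step. The rise was 1.77-fold under abemaciclib (log2 0.83 ± 0.13, adjusted p = 9.34e-06), 3.40-fold under fulvestrant (1.76 ± 0.12, adjusted p = 2.49e-12) and 3.38-fold under the combination (1.76 ± 0.12, adjusted p = 1.72e-12).

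SESN2 (chr1:28259518-28282491, plus strand) had 42.2, 46.6 and 38.9 CPM under DMSO and 69.2, 66.2 and 71.0 CPM under abemaciclib. It had 80.8, 68.0 and 76.1 CPM under fulvestrant and 83.7, 87.9 and 96.9 CPM under the combination. The combination held the highest 3 libraries, and abemaciclib and fulvestrant overlapped. SESN2 rose 1.61-fold under abemaciclib (log2 0.69 ± 0.10, adjusted p = 5.54e-06), 1.76-fold under fulvestrant (0.82 ± 0.10, adjusted p = 2.26e-07) and 2.10-fold under the combination (1.07 ± 0.10, adjusted p = 9.22e-10).

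PHGDH, which catalyses the first step of serine synthesis from a glycolytic intermediate, showed the largest change of any member. The gene lies at chr1:119648411-119744218 (plus strand). It had 43.3, 36.9 and 40.7 CPM under DMSO, from 146 to 197 counts a library, and 10.8, 7.73 and 9.10 CPM under abemaciclib. It had 6.42, 1.97 and 4.56 CPM under fulvestrant and 1.44, 2.89 and 2.52 CPM under the combination, the last from 6 to 14 counts. The 3 groups DMSO, abemaciclib and fulvestrant did not overlap, and fulvestrant and the combination did. PHGDH was 4.33-fold lower under abemaciclib (log2 -2.12 ± 0.20, adjusted p = 1.49e-09), 9.06-fold lower under fulvestrant (-3.18 ± 0.23, adjusted p = 3.95e-12) and 17.1-fold lower under the combination (-4.09 ± 0.25, adjusted p = 7.91e-14).

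The other synthesis enzymes among the members had too few counts to compare. ASNS (chr7:97851677-97872542, minus strand), which makes asparagine and whose promoter carries the element printed above, had 0, 4 and 3 counts in the DMSO libraries. It had 1, 1 and 0 counts under abemaciclib, 1, 2 and 1 under fulvestrant, and 0, 2 and 3 under the combination. No group stood apart, no library exceeded 0.76 CPM, and the gene did not enter the tests. ASNS overlaps another annotated gene on its own strand and another on the opposite strand (GENCODE v44), and the part of this overlap in its low counts was not tested. The authors counted reads on an earlier GENCODE release, whose overlaps were not examined. PSAT1 (chr9:78297125-78330093, plus strand), the enzyme after PHGDH in serine synthesis, had 0 counts in all 12 libraries, which allows up to 0.0565 CPM over the libraries together.

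Other enzymes of the same metabolism were followed beside PHGDH. Of 8 genes for serine, glycine and one-carbon enzymes in the longer list, 6 were tested, and 4 fell and 0 rose under abemaciclib, while 5 fell and 0 rose under fulvestrant and 5 fell and 0 rose under the combination, where 20.7%, 25.7% and 27.5% of all genes tested fell. Medians of the log2 fold change were -0.64, -1.16 and -1.28. MTHFD1L, a mitochondrial enzyme that releases formate, went from 11.6 ± 0.848 CPM (SD, n = 3) under DMSO to 5.33 ± 0.847 under abemaciclib, 1.12 ± 0.517 under fulvestrant and 0.944 ± 0.482 under the combination. Its log2 fold changes were -1.14 ± 0.26 (adjusted p = 9.50e-04), -3.39 ± 0.36 (adjusted p = 6.99e-09) and -3.62 ± 0.35 (adjusted p = 1.30e-09). MTHFD1, its cytosolic relative, went from 93.7 ± 2.33 CPM to 51.2 ± 4.20, 33.7 ± 5.15 and 31.2 ± 3.36 CPM in the same order, and fell in all 3 comparisons (adjusted p = 2.92e-07, 2.05e-11 and 3.07e-12).

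SHMT2, which splits serine to glycine in mitochondria, had log2 fold changes of -0.93 ± 0.15, -1.25 ± 0.15 and -1.41 ± 0.15 in that order from 62.2 ± 3.25 CPM under DMSO. MTHFD2, which acts on the one-carbon unit released, had 171 ± 28.1, 129 ± 6.16, 82.3 ± 10.2 and 77.8 ± 3.29 CPM. Both passed the test against DMSO in each drug group. PSPH, the last step of serine synthesis, had a log2 difference of 0.01 ± 0.14 under abemaciclib (adjusted p = 0.968) and fell under fulvestrant (-0.87, adjusted p = 3.45e-05) and the combination (-0.65, adjusted p = 5.02e-04). SHMT1 did not pass in any comparison.

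**Figure D2:**
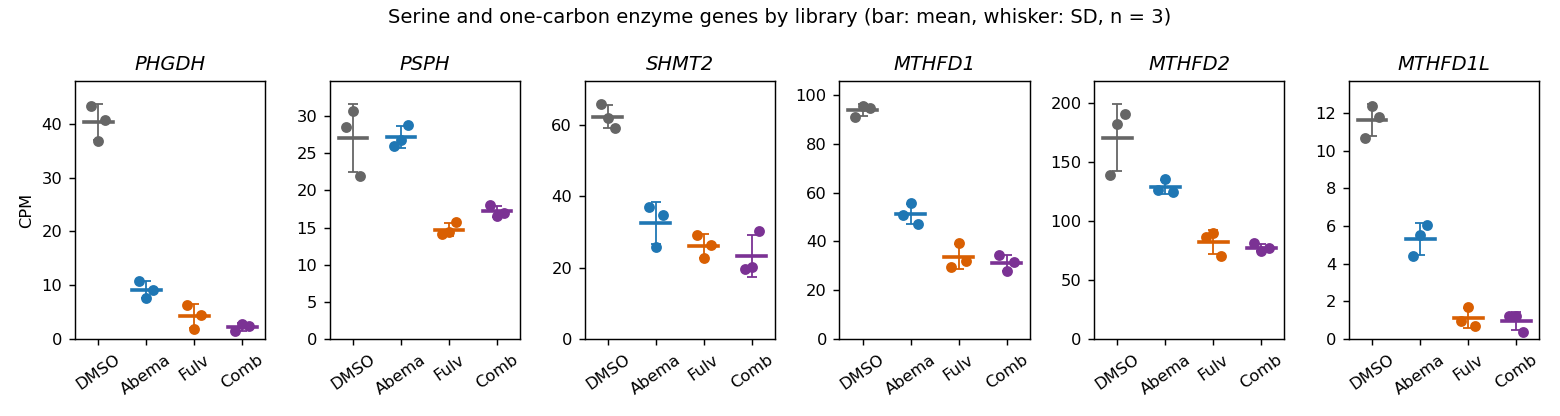
CPM of PHGDH and of 5 other serine and one-carbon enzyme genes in the 12 libraries; points are libraries, bars means and whiskers SD (n = 3), axes from 0. All but PSPH step down from DMSO to abemaciclib, and PSPH lies at 27.0 CPM under DMSO and 27.2 CPM under abemaciclib before it falls with fulvestrant.

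SLC7A5 and SLC7A11 are transporters that work as partners of the SLC3A2 heavy chain: SLC7A5 (LAT1) brings in leucine and other large neutral amino acids, and SLC7A11 (xCT) exchanges glutamate for cystine. SLC7A5 (chr16:87830023-87869507, minus strand) had 199, 240 and 248 CPM under DMSO and 269, 221 and 275 CPM under abemaciclib. It had 95.4, 105 and 129 CPM under fulvestrant and 142, 131 and 118 CPM under the combination. The 6 libraries with fulvestrant were below the 6 without it, and within each set of 6 the groups overlapped. SLC7A5 was 2.09-fold lower under fulvestrant (log2 -1.07 ± 0.11, adjusted p = 1.06e-07) and 1.76-fold lower under the combination (-0.82 ± 0.11, adjusted p = 2.96e-06). Under abemaciclib the difference was 0.15 ± 0.11 (95% interval -0.08 to 0.38, adjusted p = 0.286).

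SLC7A11 (chr4:138164097-138242349, minus strand) was low, with 8.31, 7.79 and 4.96 CPM under DMSO and 4.00, 5.96 and 5.81 CPM under abemaciclib. It had 0.74, 0.28 and 2.51 CPM under fulvestrant, from 3, 1 and 11 counts, and 0.72, 2.07 and 1.75 CPM under the combination, from 3, 10 and 9 counts. All fulvestrant-treated libraries lay below all others. SLC7A11 was 5.49-fold lower under fulvestrant (log2 -2.46 ± 0.45, adjusted p = 4.44e-05; -3.65 without fulvestrant replicate 3 and -2.05 without replicate 2) and 4.42-fold lower under the combination (-2.15 ± 0.41, adjusted p = 7.52e-05). Under abemaciclib the difference, -0.41 (95% interval -1.10 to 0.28), did not pass (adjusted p = 0.346). In GENCODE v44 SLC7A11 overlaps SLC7A11-AS1 on the opposite strand. SLC7A5 overlaps MIR6775 on its own strand and another annotated gene on the opposite strand. SLC7A11-AS1 and MIR6775 had 0 counts, and the part of these overlaps in the counts of the 2 transporters was not tested.

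SLC3A2, the heavy chain, measured 236 ± 11.6 CPM under DMSO, 236 ± 8.59 under abemaciclib, 212 ± 17.3 under fulvestrant and 187 ± 8.92 under the combination, and passed against DMSO in the combination only (log2 -0.34 ± 0.08, adjusted p = 7.07e-04; adjusted p = 0.999 for abemaciclib and 0.104 for fulvestrant). SLC1A5 (ASCT2), which imports glutamine and carries the element printed above, went from 154 ± 11.3 CPM to 75.9 ± 4.91, 42.7 ± 1.91 and 30.3 ± 4.96 CPM, with log2 fold changes of -1.02 ± 0.10 (adjusted p = 3.23e-09), -1.85 ± 0.11 (adjusted p = 3.71e-14) and -2.35 ± 0.11 (adjusted p = 2.09e-16). Over 12 tested transporters of the list, 4 rose and 5 fell under abemaciclib, 3 rose and 5 fell under fulvestrant, and 4 rose and 6 fell under the combination, beside 20.5% and 20.7%, 25.3% and 25.7%, and 27.7% and 27.5% of all genes tested. Among those that rose was SLC43A2 (LAT4), a transporter of branched-chain amino acids, at 18.1 ± 3.78 CPM under DMSO and 50.6 ± 3.99, 47.6 ± 16.0 and 54.7 ± 7.59 CPM under the drugs.

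**Figure D3:**
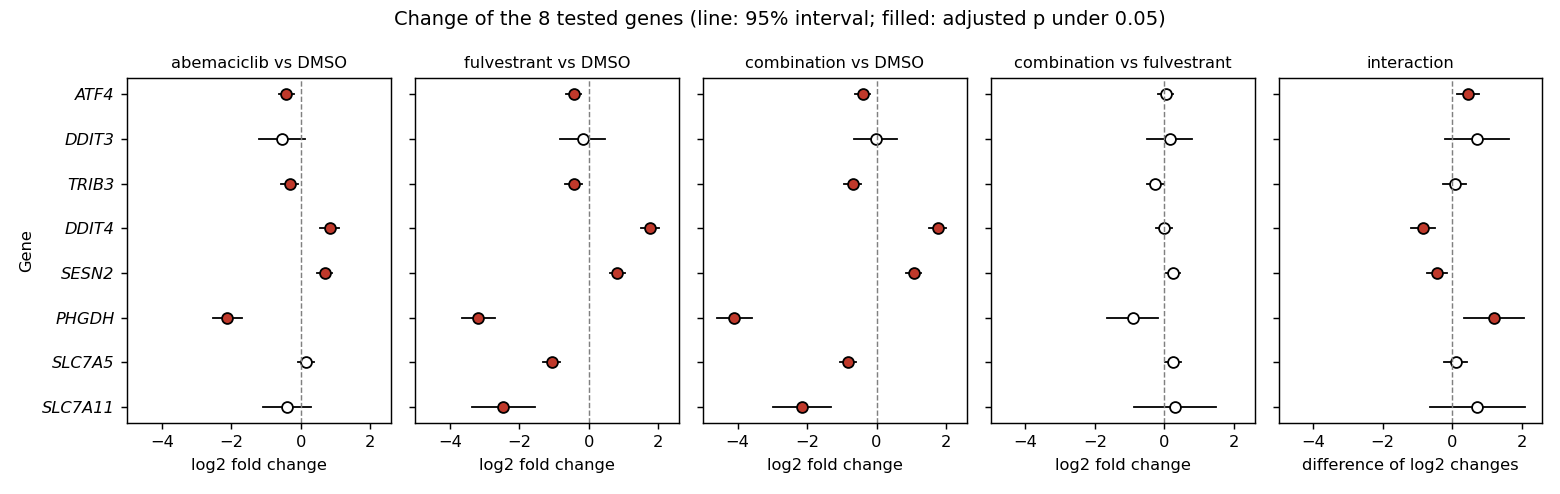
Log2 fold change with 95% interval for the 8 tested genes in the 3 comparisons with DMSO, in the combination against fulvestrant and in the interaction (a difference of log2 fold changes); filled points passed the adjusted p of 0.05 over all genes. PHGDH lies farthest below 0 in the comparisons with DMSO, DDIT4 and SESN2 lie above 0, and no point is filled for the combination against fulvestrant.

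What fulvestrant added to abemaciclib was read from the combination against abemaciclib. This takes the doses in the combination, which the labels do not restate, to be those given alone. DDIT4 and SESN2 rose and TRIB3, PHGDH, SLC7A5 and SLC7A11 fell, so 2 members were higher and 4 lower, against 15.9% and 17.7% of all genes. PHGDH was 3.94-fold lower (log2 -1.98 ± 0.30, adjusted p = 8.67e-06) and SLC7A11 3.33-fold lower (-1.73 ± 0.43, adjusted p = 0.00243). SLC7A5 was 1.95-fold lower (-0.97 ± 0.11, adjusted p = 7.86e-07) and DDIT4 1.91-fold higher (0.93 ± 0.11, adjusted p = 2.86e-07). SESN2 was 1.30-fold higher (adjusted p = 0.00325). The call of TRIB3 (-0.36, adjusted p = 0.0195) was lost without abemaciclib replicate 1 (adjusted p = 0.0800) or 2 (0.0823), and without combination replicate 1 (0.0984) or 3 (0.0512).

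What abemaciclib added to fulvestrant was read from the combination against fulvestrant, with the same reading of the combination doses. In this comparison 0 members passed with edgeR and 0 with DESeq2, where 0.297% of all genes tested rose and 1.63% fell by adjusted p. An unadjusted edgeR p under 0.05 was reached by 4 of the 8 tested members, 2 higher and 2 lower. At that unadjusted threshold 1368 of all 11803 genes tested stood, 572 higher and 796 lower. The unadjusted 4 were SESN2 (log2 0.26, 95% interval 0.05 to 0.46), SLC7A5 (0.25, 0.01 to 0.49), TRIB3 (-0.26, -0.51 to -0.01) and PHGDH (-0.91, -1.64 to -0.18). SESN2 was higher in all 3 combination libraries than in any fulvestrant library, and the other 3 overlapped. Without fulvestrant replicate 3, one of the 2 least alike libraries of its group, TRIB3 (-0.40, adjusted p = 0.0348) and SLC7A5 (0.38, adjusted p = 0.0339) passed. Of the longer list, SLC1A5 alone passed (-0.50 ± 0.12, adjusted p = 0.0204). With it, 7 of the 75 list genes tested had an unadjusted p under 0.05, 3 higher and 4 lower, beside 1368 of 11803 genes.

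The interaction asks whether the change under abemaciclib differed with and without fulvestrant, as a difference of log2 fold changes. It rests on the same reading of the combination doses. It passed for 4 members, 2 higher and 2 lower, against 9.49% and 11.6% of all genes. DDIT4, which rose by 0.83 when abemaciclib was given alone and differed by -0.01 when it was added to fulvestrant, had an interaction of -0.83 ± 0.17 (adjusted p = 7.32e-04), and it passed without any 1 of the 12 libraries. ATF4 (0.46 ± 0.15, adjusted p = 0.0300) had fallen under abemaciclib alone and lay at 0.04 when it was added. This call was lost in 9 of the 12 fits that left out 1 library, all but those without abemaciclib replicate 1, fulvestrant replicate 3 or combination replicate 1.

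PHGDH had an interaction of 1.20 ± 0.43 (adjusted p = 0.0440), a smaller fall on top of fulvestrant than on top of DMSO, and SESN2 one of -0.44 ± 0.14 (adjusted p = 0.0295). The PHGDH call was lost in 8 of 12 such fits, all but those without abemaciclib replicate 1, fulvestrant replicate 1 or 3, or combination replicate 1. The SESN2 call was lost in 6, those without DMSO replicate 3, abemaciclib replicate 1 or 3, fulvestrant replicate 1, or combination replicate 1 or 2, and with DESeq2 (adjusted p = 0.0521).

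The rest of the pathway was followed in the list of 84 genes, none of them a member, of which 75 were tested. Under abemaciclib 24 rose and 15 fell (median log2 fold change 0.19), under fulvestrant 17 rose and 25 fell (-0.02), and under the combination 19 rose and 30 fell (-0.13). Beside these counts, of all genes tested 20.5% rose and 20.7% fell under abemaciclib, 25.3% and 25.7% under fulvestrant, and 27.7% and 27.5% under the combination; no difference between the list, or any group in it, and all genes was tested. Genes of mTORC1 nutrient sensing, 12 tested, had 4 higher and 0 lower under abemaciclib, 4 and 0 under fulvestrant, and 3 and 0 under the combination, so the number higher was near the share of all genes under fulvestrant and the combination. Among them CASTOR1, the arginine sensor that restrains mTORC1, went from 7.45 ± 1.73 CPM under DMSO to means of 18.7, 14.7 and 19.5 CPM. KLHL24, described below as a ubiquitin ligase adaptor, was also counted in this group and was higher in each drug group. Genes of proline, glutamine and aminotransferase metabolism, 10 tested, had 7 lower and 1 higher both under fulvestrant and under the combination, and 2 lower and 2 higher under abemaciclib. GLUL, which makes glutamine, had a log2 fold change of 0.33 under abemaciclib (adjusted p = 0.0139), -1.13 under fulvestrant (adjusted p = 4.87e-09) and -1.32 under the combination (adjusted p = 1.74e-10).

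**Figure D4:**
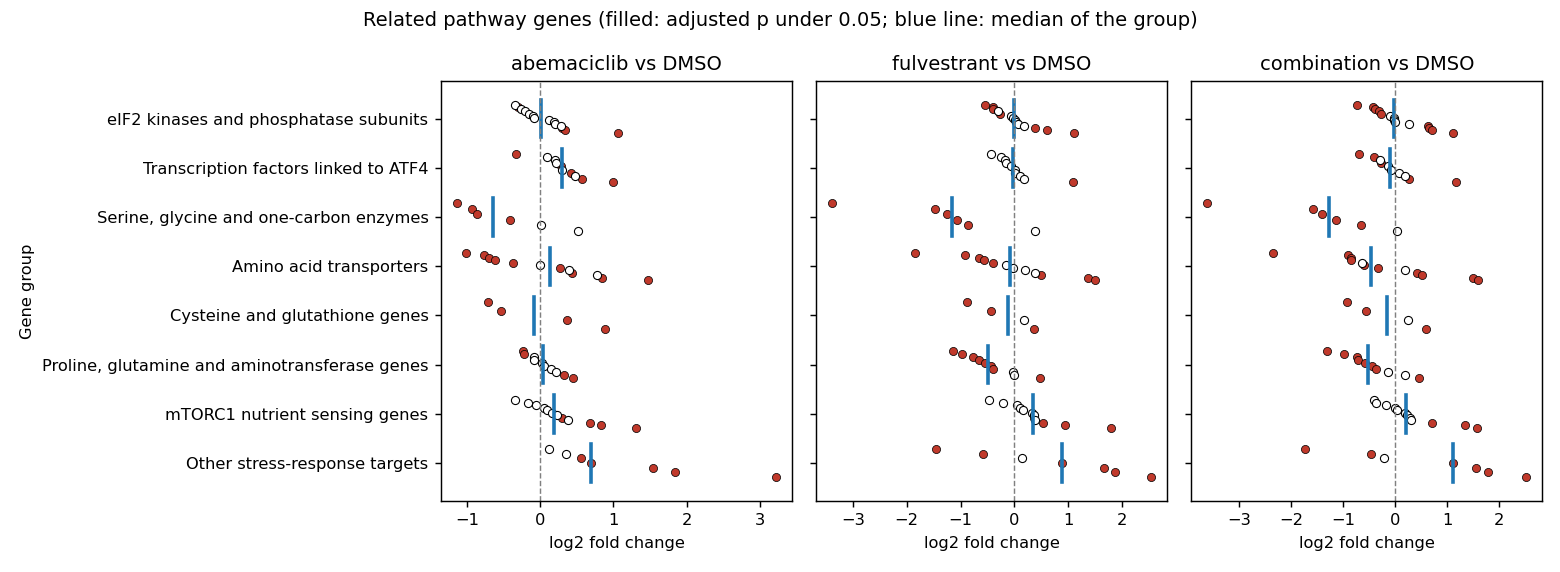
Log2 fold changes against DMSO for 75 tested genes of the list, in 8 functional groups; filled points passed the adjusted p of 0.05 and blue lines are group medians. Serine and one-carbon enzymes lie mostly below 0 in each panel, and the stress-response targets reach the highest values, up to 3.22 for GDF15 under abemaciclib.

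Some stress-response genes were higher under abemaciclib alone. GDF15, a secreted stress factor, had 24.2, 26.5 and 31.3 CPM under abemaciclib and 4.55 CPM or less in the other 9 libraries. It rose 9.35-fold under abemaciclib (log2 3.22 ± 0.28, adjusted p = 7.59e-10) and differed from DMSO by 0.14 under fulvestrant (adjusted p = 0.800) and -0.23 under the combination (adjusted p = 0.666). STC2, a secreted glycoprotein that answers both to ATF4 and to oestrogen, went from 107 ± 14.1 CPM to 385 ± 48.3 CPM under abemaciclib, and to 39.3 ± 2.67 CPM under fulvestrant and 31.9 ± 5.16 CPM under the combination. The interaction was -3.59 ± 0.52 for GDF15 (adjusted p = 1.53e-05) and -2.12 ± 0.17 for STC2 (adjusted p = 6.31e-09).

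CHAC1, which degrades glutathione, and ATF5, an ATF4 relative, had a smaller pattern of this kind. CHAC1 had 11.7 ± 1.58 CPM under DMSO, 21.7 ± 1.98 under abemaciclib, 13.4 ± 0.969 under fulvestrant and 14.0 ± 1.06 under the combination, with a log2 fold change of 0.89 ± 0.16 under abemaciclib (adjusted p = 8.08e-05). ATF5 rose by 0.42 under abemaciclib (adjusted p = 0.00770), differed by -0.24 under fulvestrant (adjusted p = 0.132) and fell by 0.42 under the combination (adjusted p = 0.00866). CEBPD, a factor of the C/EBP family, rose by 0.99 under abemaciclib (adjusted p = 0.00119), differed by -0.18 under fulvestrant (adjusted p = 0.609) and fell by 0.70 under the combination (adjusted p = 0.0344), with an interaction of -1.52 (adjusted p = 0.00410). ATF3 was at 1.69 to 4.86 CPM in all libraries and did not pass against DMSO in any group.

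Other genes rose more with fulvestrant. TXNIP, which restrains glucose uptake, went from 128 CPM under DMSO to 754 CPM under fulvestrant (log2 2.55 ± 0.11, adjusted p = 1.59e-14), with 374 CPM under abemaciclib and 741 CPM under the combination. HERPUD1, a gene of endoplasmic reticulum protein disposal, had means of 90.8, 147, 334 and 313 CPM in the order DMSO, abemaciclib, fulvestrant and combination, and TRIB1, a relative of TRIB3, had 13.4, 19.8, 42.9 and 39.6 CPM. KLHL24, a substrate adaptor of ubiquitin ligases, had 11.4, 18.3, 39.3 and 33.7 CPM in that order. These 4 genes passed against DMSO in all drug groups. PPP1R15A (GADD34), the subunit that lets eIF2 be dephosphorylated, rose in each drug group, from 10.8 ± 1.83 CPM to 22.3 ± 1.80, 22.9 ± 2.76 and 22.7 ± 5.14 CPM (log2 1.06, 1.11 and 1.11; adjusted p = 3.59e-05, 1.29e-05 and 9.58e-06). The interaction was -1.57 for TXNIP (adjusted p = 1.02e-07), -1.07 for PPP1R15A (adjusted p = 0.00241) and -1.26 for SLC43A2 (adjusted p = 0.0160). Of the 75 list genes tested, the interaction passed above 0 for 8 and below 0 for 16, beside 9.49% and 11.6% of all genes.

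**Figure D5:**
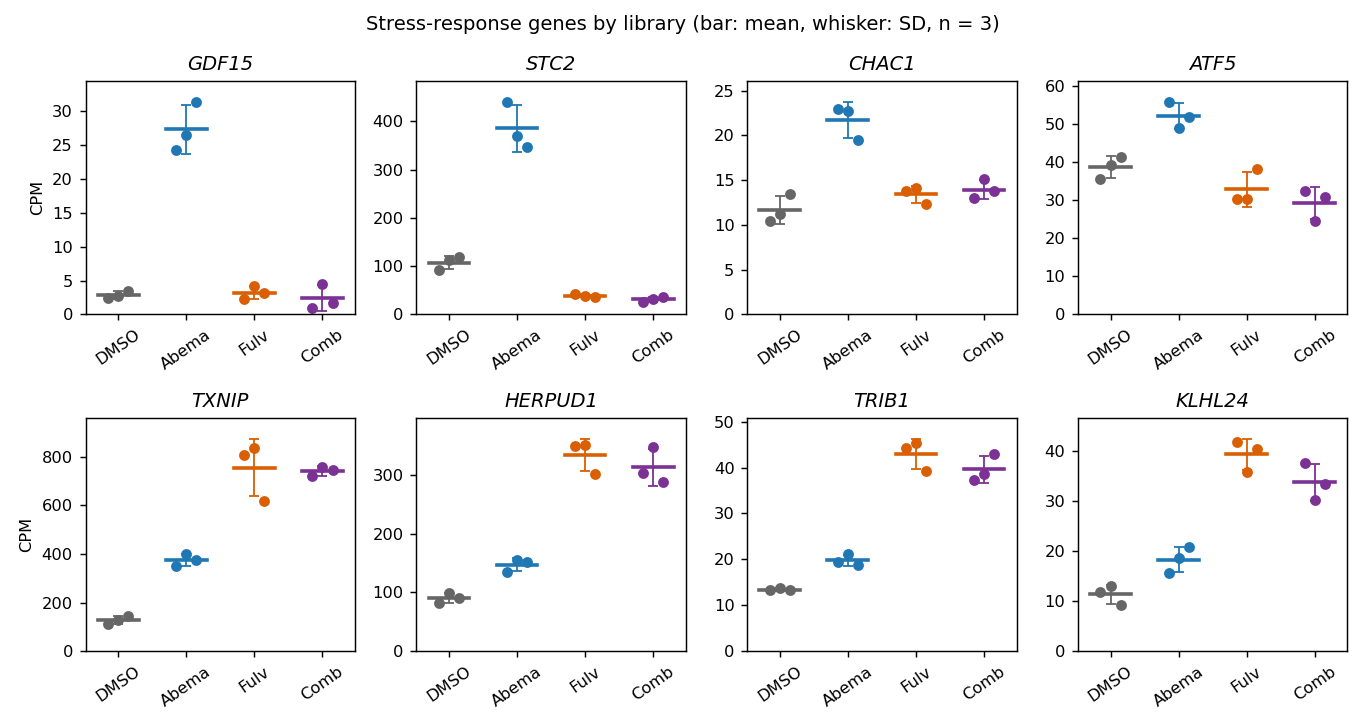
CPM of 8 stress-response genes in the 12 libraries; points are libraries, bars means and whiskers SD (n = 3), axes from 0. GDF15, STC2, CHAC1 and ATF5 are highest under abemaciclib alone, and TXNIP, HERPUD1, TRIB1 and KLHL24 are highest in the 2 groups that received fulvestrant.

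For DDIT4 and SLC7A5 the genes with the most similar pattern were sought, by the root-mean-square difference of log2 CPM, relative to the DMSO mean, over the 12 libraries among 8471 genes of at least 10 CPM. The nearest to DDIT4 were BBC3 (0.115), EFNA1 (0.154) and TSC22D3 (0.170), and BBC3 had means of 80.0, 135, 260 and 290 CPM in the order DMSO, abemaciclib, fulvestrant and combination. The genes nearest to SLC7A5 were SLC29A2 (0.134), DFFA (0.160) and CDR2 (0.188). These are descriptions with no test, and all 12 libraries are shared between the genes compared.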

How the data were processed

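The authors aligned 3′ RNA-seq reads (QuantSeq FWD libraries) to hg38 with STAR, counted them with featureCounts 2.0.1 and deposited raw read counts per gene symbol; the strand setting is not given in the sources used here. A 3′ count changes little with transcript length, and reads are not independent molecules, so floors cover counting error only. Of 60656 rows, 44 had no name and 0 reads, and 76 symbols stood on more than 1 row. Groups came from the treatment labels.

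Tests used edgeR 4.0.16 (limma 3.58.1, R 4.3.3): filterByExpr by group (minimum count 10, total 15; 11803 genes kept), TMM scaling, 1 robust quasi-likelihood fit of 4 group means to all 12 libraries (biological coefficient of variation 0.0918), F tests, Benjamini-Hochberg adjustment over all genes, and a threshold of 0.05. CPM values use the scaled library sizes. The labels call the libraries replicates, and the p-values measure the spread between them. The study's own test, DESeq2 (1.42.0), other scalings and filters, a replicate block and leaving out each library were alternatives. The pipeline was tested on simulated data. No pair of replicates agreed within sampling noise.

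The members and lists were chosen with earlier results of these data known. By rule the text names all members, the up to 6 list genes with the largest change past the threshold in each comparison (mean of at least 5 CPM in a group), and SLC3A2, CHAC1, ATF3, ATF5 and PPP1R15A; the genes whose pattern was most like that of ATF4 are not reported here. SHMT1, SHMT2, MTHFD2 and PSPH complete their group and were chosen after their values were seen. Coordinates are from GENCODE v44 on GRCh38, matched by symbol; promoter sequences are from RefSeq (GRCh38.p14). Figures were drawn with matplotlib 3.10.9.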

Additional observations from a re-analysis of the deposited data

Results flagged for a closer look

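For 4 members the change under abemaciclib differed with and without fulvestrant by the interaction test of edgeR (adjusted p under 0.05). This takes the doses in the combination to be those given alone. The difference, with fulvestrant minus without, on the log2 scale, was 0.46 for ATF4, -0.83 for DDIT4, -0.44 for SESN2 and 1.20 for PHGDH. DDIT4 passed in all 12 fits that left out 1 library, and its value then ranged from -0.92 to -0.74. The other calls were lost in some of these fits: ATF4 in 9 (range 0.33 to 0.59, highest adjusted p 0.0932), SESN2 in 6 (range -0.52 to -0.38, highest adjusted p 0.0828) and PHGDH in 8 (range 0.89 to 1.57, highest adjusted p 0.176). PHGDH in the combination rests on 6 to 14 counts a library.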

How the results depend on the processing

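Of 699 log2 fold changes of single members under alternatives, 648 kept direction and side of the threshold, 30 fell short of it, 2 newly passed it and 19 changed sign. With upper-quartile scaling the DDIT3 difference between combination and DMSO became 0.0037 and the DDIT4 difference between combination and fulvestrant 0.0013. Leaving out 1 library, the other values that changed sign, none past the threshold, ranged for DDIT3 from -0.51 to 0.15 (fulvestrant against DMSO), -0.12 to 0.14 (combination against DMSO) and -0.17 to 0.48 (combination against fulvestrant). Against fulvestrant, the combination ranged from -0.083 to 0.079 for DDIT4, -0.087 to 0.17 for ATF4 and -0.093 to 1.51 for SLC7A11, and against abemaciclib from -0.029 to 0.11 for ATF4. The interaction ranged from -0.069 to 0.21 for TRIB3 and -0.0011 to 0.23 for SLC7A5. Members called ranged from 0 to 2 for the combination against fulvestrant and from 1 to 4 for the interaction. All genes called for the combination against fulvestrant, 227, became 91 with at least 10 counts required in every library and 125 with only the groups compared in the fit, and ranged from 146 to 588 (588 without fulvestrant replicate 3); fewer genes are tested in the first and fewer samples fitted in the second, and otherwise the cause was not tested. Replicate numbers did not pair the libraries: deviations of same-numbered libraries correlated with a median of 0.0227 (18 pairs, -0.215 to 0.119). With the replicate block, the members called stayed at 5, 7, 7, 6, 0 and 4, and genes called for the combination against fulvestrant were 203. Other scalings moved the median of all genes by at most 0.028. Leaving out mitochondrial transcripts was chosen after seeing the data. At 3299119 to 5164667 counts a library, ASNS, PSAT1 and low genes such as DDIT3 and SLC7A11 cannot show small differences.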

Other observations

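Of the 84 list genes, 9 were too scarce to test. BCAT1, FGF21 and SESN3 had 0 counts in all 12 libraries. CTH, the enzyme that releases cysteine in transsulfuration, had 12, 13, 15 and 6 counts in all under DMSO, abemaciclib, fulvestrant and the combination, and CBS, the enzyme before it, had 4 counts in the combination and 0 in the other groups. GLDC, of glycine cleavage, had 9 counts under abemaciclib, 1 under DMSO, 0 under fulvestrant and 1 under the combination. No comparison was made for these genes.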
